A study of Mus musculus with 23 samples.

Results

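Cd276, the gene of the B7 family ligand B7-H3, was described together with 8 other genes of immune checkpoint molecules in microglia, the resident macrophages of the brain. The 9 genes, of 53090 in the deposited tables, were taken by symbol: Cd276, Cd274, Pdcd1lg2, Cd80, Cd86, Icosl, Vsir, Cd40 and Lag3. They were chosen by the counts of Cd276, which were low in young repopulated libraries, so values of those libraries against young ones are given for all 9 genes as a description with no test. Values of Cd276 in any comparison that uses young or young repopulated libraries are likewise a description.

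The study sequenced poly(A) RNA of brain microglia from female C57BL/6 mice in 4 groups. Young mice gave 7 libraries and young mice with repopulated microglia 3, while old mice gave 5 and old mice with repopulated microglia 8. In the repopulated groups microglia had been depleted with PLX5622, an inhibitor of the receptor CSF1R on which microglia depend, given in AIN-76A chow at 1200 ppm, and had then returned. The labels' protocols describe control mice that ate the same chow without the drug, and no group carried an engineered allele in the labels. The sources used here give no ages, no length of treatment and no time allowed for return. The protocols describe magnetic CD11b selection with culture as well as cells sorted by flow cytometry, and the RNA text names the sorted cells. The labels do not tie libraries to named animals, so p-values measure the spread between these libraries.

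Immune checkpoint molecules are surface proteins through which antigen-presenting cells and T cells raise or restrain each other's activity. CD80 and CD86 engage CD28 and CTLA4, CD274 (PD-L1) and PDCD1LG2 (PD-L2) engage PD-1, and ICOSL engages ICOS, while CD40 on the presenting cell receives the signal of CD40L from T cells. VISTA, the product of Vsir, and CD276 are B7 relatives best known for restraining T cells, and LAG3 is an inhibitory receptor known from T cells and also carried by microglia.

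Depth was similar across groups, from 43.66 to 58.19 M (mega) counts per library. Markers of homeostatic microglia were present in every library: 10 of 10 were detected, Fcrls and Cx3cr1 among them, with summed levels of 18058 to 25181 counts per M (CPM) in young and young repopulated libraries. In old and old repopulated libraries the same sum ran lower and wider, from 7505 to 23522 CPM. A set of 10 markers of monocytes and neutrophils, led by Chil3 and Ccr2, summed to 30.3 to 281 CPM in young, 122 to 354 CPM in young repopulated, 229 to 2195 CPM in old and 129 to 2969 CPM in old repopulated libraries. In all, 7 libraries stood apart with 826 CPM or more of these markers: old replicates 2, 3 and 5 and old repopulated replicates 5, 6, 7 and 8. The other 16 libraries had at most 399 CPM. Young replicate 3 had the fewest genes with a count, 16399. Library numbers in the sample titles fall into 2 runs: numbers 1 to 11 hold no young repopulated library, and numbers 12 to 24 hold all 3. The sources used here do not say what separates the runs. In bulk RNA of this kind, fewer cells of a type and less RNA per cell cannot be told apart.

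Upstream sequences are shown for Cd80 and for the neighbouring genes Cd274 and Pdcd1lg2 on chromosome 19, the first because it was called against young libraries and the latter because they lie side by side. RefSeq entries (GRCm38.p6) matched 6 of the 9 genes. Each line is the 250 bases before the annotated start, 5′ to 3′ on the gene's own strand, all 3 on the + strand, with motif matches in capitals.
Cd80, chr16:38458683-38458932: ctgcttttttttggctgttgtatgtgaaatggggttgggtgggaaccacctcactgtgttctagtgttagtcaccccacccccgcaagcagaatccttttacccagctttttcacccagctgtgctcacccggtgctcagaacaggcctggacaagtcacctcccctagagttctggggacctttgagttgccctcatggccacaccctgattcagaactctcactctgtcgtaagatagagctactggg
Cd274, chr19:29367188-29367437: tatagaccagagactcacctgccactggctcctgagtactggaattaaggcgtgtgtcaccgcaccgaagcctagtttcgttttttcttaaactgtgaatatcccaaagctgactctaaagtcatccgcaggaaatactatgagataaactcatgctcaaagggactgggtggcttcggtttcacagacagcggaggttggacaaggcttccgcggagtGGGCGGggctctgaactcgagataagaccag
Pdcd1lg2, chr19:29410669-29410918: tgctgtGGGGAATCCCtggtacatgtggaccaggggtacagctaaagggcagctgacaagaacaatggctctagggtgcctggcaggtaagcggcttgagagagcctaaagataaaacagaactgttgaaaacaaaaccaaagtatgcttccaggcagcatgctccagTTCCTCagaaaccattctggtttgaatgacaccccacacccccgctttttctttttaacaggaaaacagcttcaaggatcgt
In all, 4 motifs were searched on both strands: an NF-kB consensus, the interferon-stimulated response element (GAAA, any 2 bases, GAAA), the PU.1 core GAGGAA and the SP1 box GGGCGG, and no match overlapped another in these 3 windows. Cd80 held none of the 4. Cd274 held 1 SP1 box 31 bases before the start. Pdcd1lg2 held 1 NF-kB consensus and 1 PU.1 core, the latter on the opposite strand. The matched windows of Cd276, Vsir and Icosl are not shown. Cd276 held 3 SP1 boxes and 1 PU.1 core in a window of 77.6% GC, against a median of 52.4% over all windows. Vsir held 2 SP1 boxes and Icosl 1. Of all 32851 windows of this length, 3.9% held the NF-kB consensus, 2.98% the interferon element, 23.3% the PU.1 core and 32.7% the SP1 box. A match describes letters only.

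Vsir had the highest median level per length, followed by Lag3 and Cd86. The median deposited TPM (transcripts per M, a length-scaled level) over 23 libraries was 499 for Vsir, 328 for Lag3, 194 for Cd86, 84.3 for Icosl, 26.3 for Cd274, 14.2 for Cd80, 8.95 for Cd276, 5.38 for Cd40 and 0.29 for Pdcd1lg2. The libraries thus held abundant Vsir, Lag3 and Cd86 transcripts and next to none of Pdcd1lg2. Neighbours in this order were not all separate. Cd80 exceeded Cd276 in 16 of 23 libraries, Cd276 exceeded Cd40 in 14 of 23 and Vsir exceeded Lag3 in all 23. Lag3 exceeded Cd86 in 18 of 23, but in old repopulated libraries its median TPM of 111 lay below the 132 of Cd86. In turn, Cd274 exceeded Cd80 in 21 of 23.

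Cd276 (ENSMUSG00000035914.11, GRCm38 chr9:58524298-58555437, minus strand) was highest in young libraries and lowest in young repopulated ones. Young libraries ranged from 18.3 to 38.6 CPM with a median of 31.2. The 3 young repopulated libraries had 9.18, 9.44 and 7.44 CPM, all below every young library. The 5 old libraries had 22.5, 13.4, 12.2, 20.1 and 18.3 CPM, of which 3 lay above the lowest young value and 2 below it. Old repopulated libraries ranged from 8.30 to 16.7 CPM with a median of 13.8. All 8 lay below every young library, where 2.24% of all genes tested had ranges that did not overlap, and 7 of 8 lay above every young repopulated one. Group means were 29.6 ± 7.05 (SD, n = 7) in young, 8.69 ± 1.09 (n = 3) in young repopulated, 17.3 ± 4.41 (n = 5) in old and 12.9 ± 3.01 CPM (n = 8) in old repopulated libraries.

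**Figure D1:**
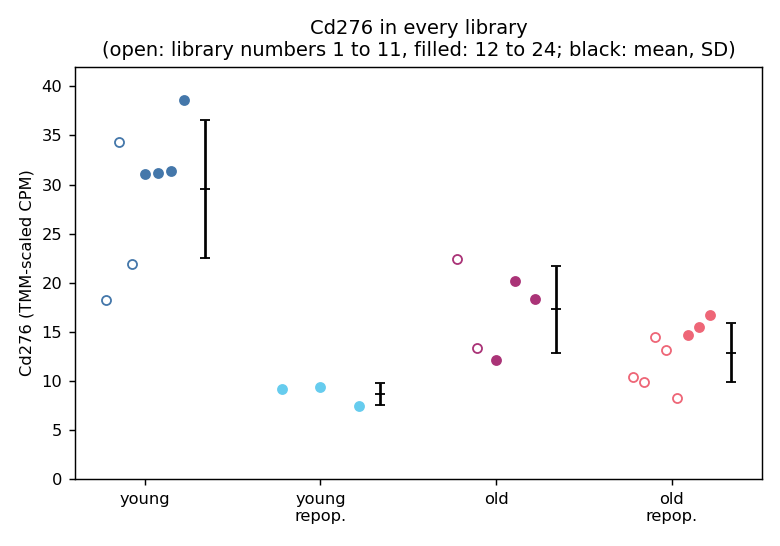
Cd276 level (TMM-scaled CPM, linear axis from 0) in each of 23 libraries by group; open points are library numbers 1 to 11, filled points 12 to 24, and the black bar is the group mean with its SD. The 3 young repopulated libraries lie at 7.44 to 9.44 CPM, and the 8 old repopulated libraries at 8.30 to 16.7 CPM lie below the lowest young library at 18.3 CPM.

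For Cd276, only the comparison within old mice takes its fold change from groups that did not serve to choose the genes. The fit still estimated the spread from all 23 libraries, and the tests were chosen with earlier results of these data known. Within old mice Cd276 had a log2 fold change of -0.42 ± 0.19 (SE) in old repopulated against old libraries. The ranges overlapped, and the change was not called (edgeR quasi-likelihood test, unadjusted p = 0.0355, adjusted p = 0.415). It was called under none of the alternatives tried, and an exact two-sided permutation test of log2(TPM + 0.1) gave p = 0.0513. Its size was -0.67 in library numbers 1 to 11 and -0.11 in numbers 12 to 24, and these did not pass a test of their difference (edgeR, adjusted p = 0.760). As descriptions, the fitted log2 fold changes of Cd276 were -1.77 ± 0.26 for young repopulated against young, -0.77 ± 0.20 for old against young, -1.20 ± 0.17 for old repopulated against young and 0.57 ± 0.24 for old repopulated against young repopulated. These comparisons share libraries and are not separate evidence. Old repopulated against young was -1.14 within library numbers 1 to 11 and -1.08 within numbers 12 to 24.

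The deposited transcript length of Cd276, weighted by the abundance of its isoforms, was 2187 to 3352 bases across libraries. Its medians were 3186 bases in young, 3187 in young repopulated, 3194 in old and 2948 in old repopulated libraries, and single reads of 50 nt limit this estimate. Cd274, Cd80 and Pdcd1lg2 had a single length in every library.

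Cd274 (chr19:29367455-29388095), the gene of PD-L1, had its highest values in old libraries. Young libraries ranged from 37.1 to 58.4 CPM with a median of 50.4, and the young repopulated libraries had 59.6, 44.3 and 61.7 CPM. Old libraries had 57.0, 55.4, 101.6, 72.3 and 83.0 CPM, of which 3 lay above every young library. Old repopulated libraries ranged from 25.0 to 74.4 CPM with a median of 59.3. The old and young ranges overlapped, and the log2 fold change of 0.61 ± 0.20 was not called (edgeR, adjusted p = 0.109). Old repopulated against old gave -0.41 ± 0.19, also not called (edgeR, adjusted p = 0.451). The change in old against young libraries was called with only the 2 groups fitted (edgeR, adjusted p = 0.0445). It was also called by limma with sample quality weights, within library numbers 12 to 24 and without old repopulated replicate 2. DESeq2 (adjusted p = 0.0556) and edgeR with the library run as a block (adjusted p = 0.0719) did not call it.

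Pdcd1lg2, the gene of PD-L2, was near the limit of detection. Young libraries ranged from 0 to 0.448 CPM, that is 0 to 22 counts. The young repopulated libraries had 0.384, 0.422 and 0.11 CPM, the old libraries 0.261, 0.306, 1.46, 0.621 and 1.05 CPM, and old repopulated libraries ranged from 0 to 2.09 CPM with a median of 0.584. The 3 highest old libraries lay above every young one, and the log2 fold change of 2.12 ± 1.05 against young was not called (edgeR, adjusted p = 0.343).

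Cd80, a ligand of CD28 and CTLA4, was higher in old repopulated than in young libraries. Young libraries ranged from 6.82 to 12.6 CPM with a median of 9.92, and the young repopulated libraries had 12.5, 14.5 and 14.3 CPM. Old libraries had 11.1, 16.3, 34.1, 15.9 and 28.4 CPM, and old repopulated libraries ranged from 9.11 to 38.6 CPM with a median of 15.8. In all, 7 of 8 old repopulated libraries lay above every young library. Cd80 rose by a log2 fold change of 1.08 ± 0.27 (edgeR, adjusted p = 0.0111). Old against young gave nearly the same size, 1.09 ± 0.30, and missed the threshold (edgeR, adjusted p = 0.0514), with 4 of 5 old libraries above every young one. That comparison was called for Cd80 by DESeq2 (adjusted p = 0.0112) and by edgeR with the library run as a block (adjusted p = 0.0305).

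Cd86 (chr16:36603869-36666081), the other ligand of CD28 and CTLA4, moved the opposite way. CPM in young libraries ran from 228 to 267 with a median of 235, and the young repopulated libraries had 204, 228 and 232 CPM. Old libraries had 232, 176, 162, 214 and 180 CPM, and old repopulated libraries ranged from 117 to 250 CPM with a median of 154. Of the old repopulated libraries, 5 lay far below the young range and 3 within or beside it. Cd86 fell in old repopulated against young libraries, with a log2 fold change of -0.44 ± 0.13 (edgeR, adjusted p = 0.0271). That call was lost when only the 2 groups were fitted and when any of young replicate 5 or old repopulated replicates 2, 5, 6, 7 and 8 was left out, with adjusted p from edgeR between 0.0502 and 0.0592. Old against young was -0.33 ± 0.15 (edgeR, adjusted p = 0.290).

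Cd40 (chr2:165055627-165072948), the receptor for CD40L, was spread most among old and old repopulated libraries. Levels in young libraries ran from 1.495 to 4.71 CPM with a median of 1.77, and the young repopulated libraries had 4.23, 3.89 and 2.85 CPM. Old libraries had 1.96, 6.58, 16.7, 4.03 and 10.6 CPM, and old repopulated libraries ranged from 1.52 to 17.4 CPM with a median of 6.52. In all, 3 of 5 old and 5 of 8 old repopulated libraries lay above every young library, and the others overlapped it. Cd40 rose in old repopulated against young libraries by 1.52 ± 0.49 on the log2 scale (edgeR, adjusted p = 0.0374). Leaving out any of young replicates 1, 4, 5, 6 and 7 or old repopulated replicates 5, 6, 7 and 8 ended that call, with adjusted p from edgeR between 0.0517 and 0.096. Old against young gave 1.58 ± 0.53, not called (edgeR, adjusted p = 0.119).

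Icosl (chr10:78069302-78083913), the ligand of ICOS, was highest in young repopulated libraries. Young libraries ranged from 116 to 144 CPM with a median of 127, and the young repopulated libraries had 170.1, 169 and 205 CPM, all above every young library. The fitted log2 fold change was 0.51 ± 0.17, a description. Cd276 and Icosl were the only members whose ranges did not overlap there, as was so for 12.1% of all genes tested. Old libraries had 159, 113, 94.7, 136 and 126 CPM, and old repopulated libraries ranged from 75.1 to 176 CPM with a median of 128. Old repopulated against young repopulated gave -0.55 ± 0.17, not called after adjustment (edgeR, unadjusted p = 0.00344, adjusted p = 0.380). With the library run as a block it was called (edgeR, adjusted p = 0.0333).

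Vsir (chr10:60346851-60372684), the gene of VISTA, was the most abundant of the 9 per length. Levels in young libraries ran from 1069 to 1486 CPM with a median of 1254, and the young repopulated libraries had 1277, 1428 and 1551 CPM. Old libraries had 1223, 911, 595, 1078 and 742 CPM, and old repopulated libraries ranged from 502 to 1752 CPM with a median of 869.9. Old repopulated libraries thus lay on both sides of the young range. The log2 fold changes were -0.45 ± 0.25 for old against young (edgeR, adjusted p = 0.410) and -0.36 ± 0.22 for old repopulated against young (edgeR, adjusted p = 0.279), and neither was called. With the library run as a block, old repopulated against young was called (edgeR, adjusted p = 0.0411).

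Lag3 (chr6:124904361-124911705, minus strand), an inhibitory receptor, had the widest spread of the well-measured members. The young range was 322 to 552 CPM with a median of 505, and the young repopulated libraries had 541, 369 and 630.2 CPM. Old libraries had 395, 247, 116, 358 and 201 CPM. Old repopulated libraries ranged from 7.42 to 815 CPM with a median of 137, so the lowest of them carried almost none. That library was replicate 8, and 2 others lay above every young library. Old repopulated against young gave a log2 fold change of -0.67 ± 0.60, not called (edgeR, adjusted p = 0.494), and old against young gave -0.79 ± 0.70 (edgeR, adjusted p = 0.659).

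**Figure D2:**
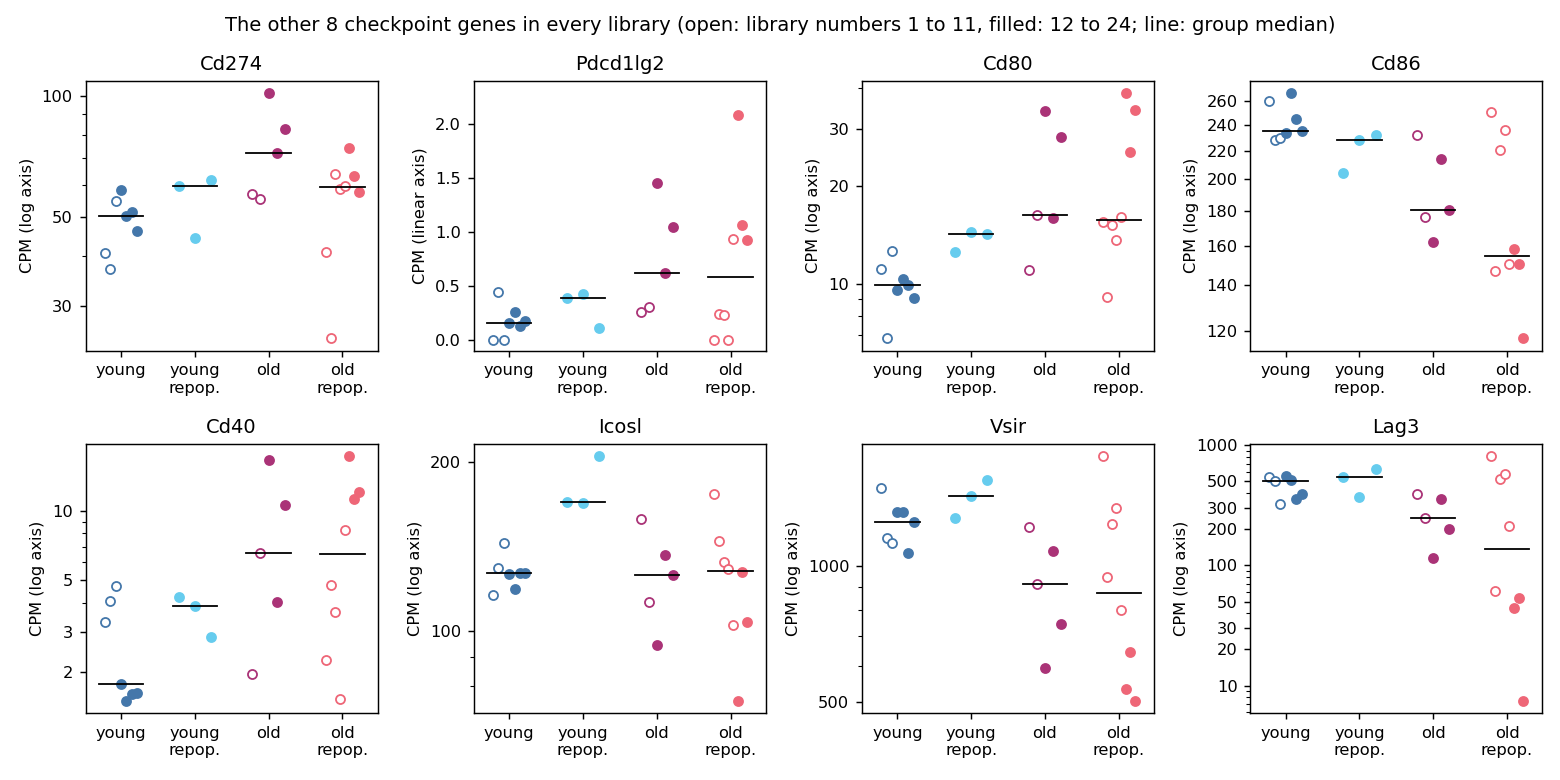
CPM of the other 8 genes in each of 23 libraries by group (log axes, linear for Pdcd1lg2); open points are library numbers 1 to 11, filled points 12 to 24, and lines are group medians. Ranges were widest in the 8 old repopulated libraries, the largest group, with Lag3 from 7.42 to 815 CPM and Cd40 from 1.52 to 17.4 CPM. For Cd40 and Cd274 the SD was larger in old libraries (5.84 against 5.58 and 19.2 against 15.4 CPM).

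Counted over the members, the tests called few. Within old mice, 0 of 9 were called by edgeR in repopulated against other libraries, where 0.278% of all genes were called. Unadjusted p-values were under 0.05 for 2 of them, Cd276 and Cd274, as for 1941 of 18720 genes. DESeq2 also called 0, beside 1.66% of all genes. The 7 members other than these had log2 fold changes between -0.11 and 0.12. In old against young libraries edgeR called 0 of 8, beside 2.83% of all genes. There 4 of 8 had unadjusted p-values under 0.05, as had 2870 of 18720 genes, and DESeq2 called 2, Cd40 and Cd80, beside 5.19% of all genes. Against young libraries, 3 of 8 were called in old repopulated ones, beside 15.2% of all genes. Cd80 and Cd40 were the 2 higher ones, beside 9.29% of all genes, and Cd86 the 1 lower, beside 5.92%. Between the repopulated groups edgeR called 0 of 8, beside 0.0% of all genes. There 1 had an unadjusted p under 0.05, as had 2183 of 18720 genes, and DESeq2 called 0, beside 0.433%. Fold changes of those 8 ran from -0.84 for Lag3 to 1.16 for Pdcd1lg2 on the log2 scale, and the lowest adjusted p from edgeR was 0.380. Ranges overlapped for all 9 members in old repopulated against old libraries, in old against young and in old repopulated against young repopulated libraries, where 0.737%, 2.21% and 2.26% of all genes had ranges that did not. The median log2 fold change of the 9 members lay between -0.06 and 0.19 over the 5 comparisons, and that of all genes between -0.04 and 0.05.

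**Figure D3:**
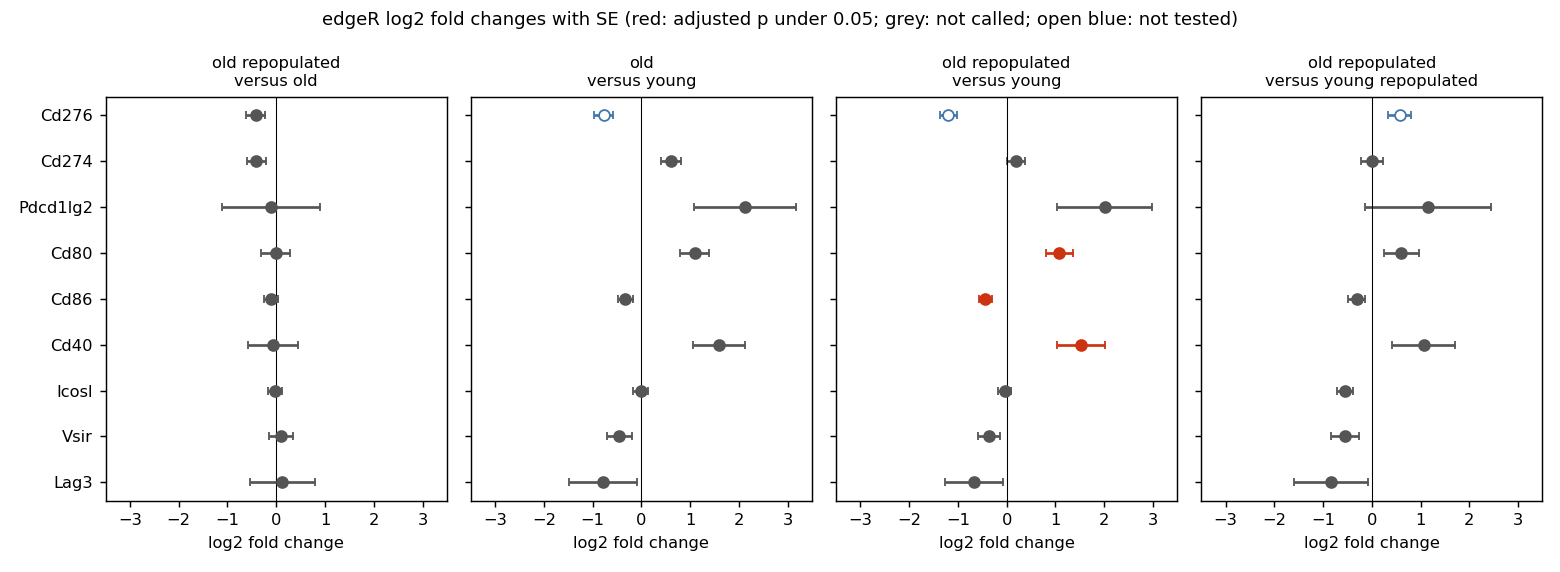
Fitted log2 fold changes with SE (horizontal bars) of the 9 genes in 4 comparisons; red points have an adjusted p under 0.05, grey points do not, and open blue points are descriptions of Cd276 with no test. Red points occur only for Cd80, Cd86 and Cd40 in old repopulated against young libraries.

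Monocyte and neutrophil markers moved with most of the members other than Cd276. The 7 libraries with 826 CPM or more of these markers were also the 7 highest of all 23 for Cd40, at 6.58 to 17.4 against 1.495 to 4.77 CPM in the other 16. They were the 7 highest for Cd80 too, at 16.05 to 38.6 against 6.82 to 15.9 CPM. For Vsir they were the 7 lowest, at 502 to 911 against 943 to 1752 CPM. They held 6 of the 7 highest values of Pdcd1lg2, 4 of the 7 highest of Cd274, 6 of the 7 lowest of Cd86 and of Lag3, and 5 of the 7 lowest of Icosl. All 7 were old or old repopulated libraries. For Cd276 they held none of the 7 highest and 2 of the 7 lowest values. The number 7 was set at the gap in the marker sum after the data were seen, and the part of these markers in the members' values was not tested. The 7 libraries with the most homeostatic microglia markers included 6 young ones. These 7 held 5 of the 7 highest values of Cd276, 6 of Cd86, 4 of Vsir, 3 of Lag3 and 1 of Icosl. Of the 7 lowest values they held 5 each of Cd80, Cd40 and Cd274, 4 of Pdcd1lg2, 2 of Icosl and 1 of Cd276. The 7 libraries with the least were old replicates 3 and 5 and old repopulated replicates 2, 5, 6, 7 and 8. All of these but old repopulated replicate 2 are among the 7 rich in monocyte and neutrophil markers. The part of homeostatic markers was not tested either.

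**Figure D4:**
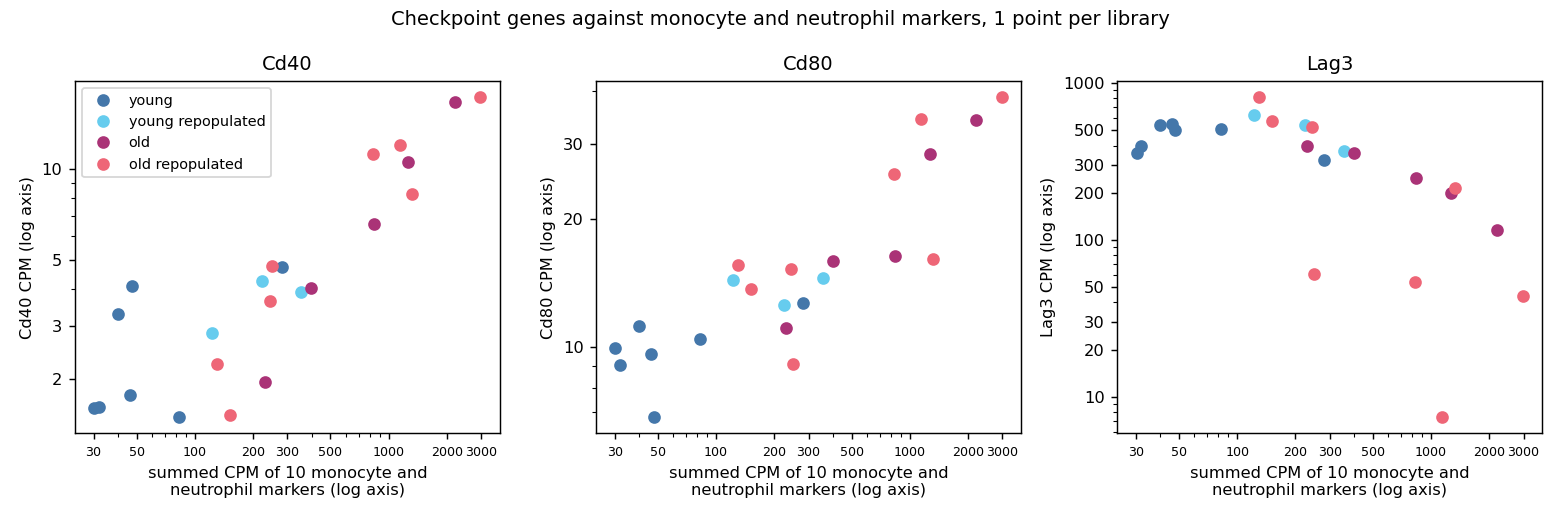
Level of Cd40, Cd80 and Lag3 (CPM, log axes) against the summed CPM of 10 monocyte and neutrophil markers (log axis), 1 point per library, coloured by group. The 7 libraries at 826 CPM or more on the x axis hold the 7 highest values of Cd40 and of Cd80.

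Other cell types' markers were also summed. Border-associated macrophage markers, led by Stab1 and Siglec1, ran from 691 to 3079 CPM over all libraries. Stab1 alone, at 563 to 1713.5 CPM, made most of this sum on average. The 7 libraries richest in these markers were the 7 lowest for Cd86. They also held 6 of the 7 highest values of Cd80 and of Cd40 and 6 of the 7 lowest of Vsir and of Lag3. Dendritic cell markers, led by Ccr7 and Flt3, ran from 9.14 to 23.3 CPM in young, 23.5 to 51.0 CPM in young repopulated, 22.5 to 197 CPM in old and 15.8 to 149 CPM in old repopulated libraries. The 7 richest in these held 6 of the 7 highest values of Cd80, Cd40 and Pdcd1lg2 and 6 of the 7 lowest of Vsir and Lag3. T and NK cell markers stayed between 1.42 and 5.25 CPM in every library, and Cd3e was at 0 in 14 of 23. B cell markers ran from 26.1 to 302 CPM, most of it Ighm. Endothelial and mural markers ran from 18.02 to 70.4 CPM, neuron markers from 1.94 to 6.2 CPM, astrocyte markers from 25.4 to 184 CPM and oligodendrocyte markers from 95.7 to 139 CPM. On average, Slc1a3 made most of the astrocyte sum, and Cnp and Mbp most of the oligodendrocyte sum. The part of all these cell types' markers in the members' values was not tested.

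Within each run of library numbers, old repopulated and young libraries could be compared, and among the 8 members tested the difference between runs passed for 1, Cd40. Its log2 fold change was 0.02 within numbers 1 to 11 and 3.06 within numbers 12 to 24, a difference of 3.04 ± 0.67 (edgeR, adjusted p = 0.0365). Of all genes, 1.39% passed this test, which was added after the data were seen. The difference missed the threshold for Lag3, at -0.06 and -3.70 (edgeR, adjusted p = 0.0507), for Cd80, at 0.45 and 1.75 (adjusted p = 0.0538), and for Vsir, at -0.05 and -1.15 (adjusted p = 0.0660). Of Lag3, the 3 old repopulated libraries in numbers 12 to 24 had 7.42 to 53.7 CPM and the 4 young ones 358 to 552 CPM. How many of all genes separate in this way within that run was not computed. In numbers 1 to 11 the 5 old repopulated libraries had 60.8 to 815 CPM, on both sides of the 3 young libraries at 322 to 540 CPM. Those 3 old repopulated libraries of the higher numbers, replicates 6, 7 and 8, are among the 7 rich in monocyte and neutrophil markers. Within numbers 1 to 11 alone edgeR called 0 of the 8 members, beside 0.0107% of all genes, and within numbers 12 to 24 it called 6, all but Cd274 and Icosl, beside 41.1% of all genes.

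**Figure D5:**
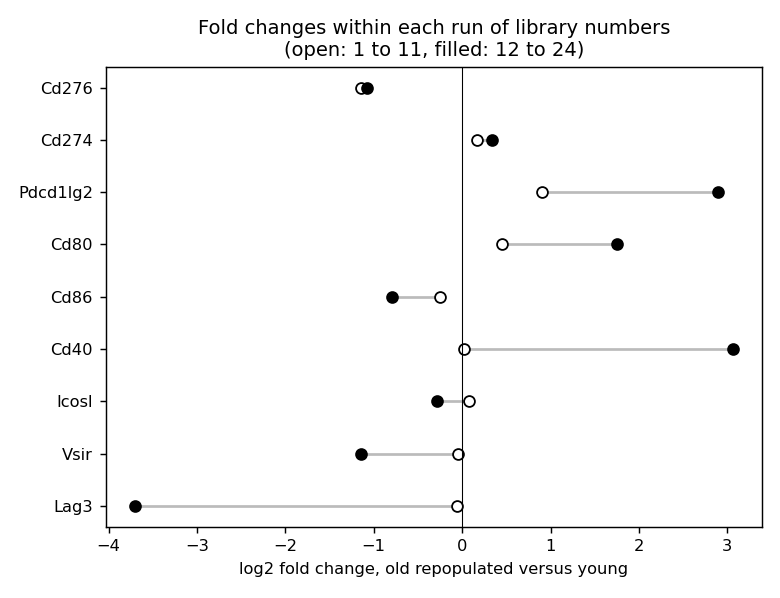
Log2 fold change of each gene in old repopulated against young libraries, within library numbers 1 to 11 (open) and 12 to 24 (filled). Cd276 sits at -1.14 and -1.08, while Cd40 moves from 0.02 to 3.06 and Lag3 from -0.06 to -3.70.

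Partners of the members were measured in the same fit: 9 of 12 listed receptors and ligands passed the filter on low counts. Icos, the receptor for ICOSL known from T cells, averaged 4.76 ± 0.947 CPM (SD, n = 7) in young libraries. It fell to 0.766 ± 0.514 CPM (n = 8) in old repopulated ones. These ranges did not overlap, as for 2.24% of all genes tested. The log2 fold change was -2.63 ± 0.34 (edgeR, adjusted p = 9.27e-05). As a description, the young repopulated libraries, at 0.955 to 1.37 CPM, also lay below every young one. Ranges did not overlap there for 12.1% of all genes tested. Icos also fell in old repopulated against old libraries, by 1.73 on the log2 scale (edgeR, adjusted p = 0.0394). It was the 1 of 9 partners called there, beside 0.278% of all genes. That call was lost in 16 of the 23 fits that left out 1 library, with adjusted p from edgeR of up to 0.148, and when only the 2 groups were fitted. Lgals3, the gene of galectin-3, a LAG3 ligand, rose in old against young libraries (log2 fold change 2.52 ± 0.56, edgeR, adjusted p = 0.0173) and in old repopulated against young ones (2.66 ± 0.53, edgeR, adjusted p = 0.00259). The former was lost without old replicate 3 (edgeR, adjusted p = 0.102). Treml2, a reported counter-receptor of CD276, fell by 0.43 ± 0.13 in old repopulated against young libraries (edgeR, adjusted p = 0.0324), a call lost in 7 of the 23 fits that left out 1 library. Ctla4 was also called higher there, from means of 0.00943 and 0.212 CPM. In all, 2 of the 9 partners were called higher there, beside 9.29% of all genes, and 2 lower, beside 5.92%. The median over the 9 partners was 0.48 in that comparison, against -0.02 for all genes.

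Of 40 other checkpoint ligands and receptors, 36 were tested. Within old mice, 1 was higher and 0 lower in repopulated libraries, beside 0.278% of all genes called. It was Pilra, an inhibitory receptor of myeloid cells, at 65.4 ± 15.4 (n = 8) against 33.3 ± 4.37 CPM (n = 5) with no overlap (log2 fold change 0.97 ± 0.15, edgeR, adjusted p = 0.00789), a gene with a close relative, so its value is uncertain. Ranges did not overlap in that comparison for 0.737% of all genes tested. With only the 2 groups fitted Pilra was not called (edgeR, adjusted p = 0.135). In old against young libraries, beside 2.83% of all genes called, 4 were higher, Slamf7, Cd24a, Nectin1 and Cd48, and 0 lower. Slamf7, a self-ligand receptor of leukocytes, had the largest change of them, 4.53 ± 0.70 (edgeR, adjusted p = 0.00257). Old repopulated against young libraries had 10 higher, beside 9.29% of all genes, and 3 lower, beside 5.92%. The 10 included genes near the limit of detection. Cd226 and Havcr1 were at 0 CPM in every young library and averaged 0.182 and 0.171 CPM in old repopulated ones. Nectin1, an adhesion molecule, rose by 3.10 ± 0.52 (edgeR, adjusted p = 0.000833) with no overlap, as for 2.24% of all genes tested. Cd24a and Timd4, a receptor for phosphatidylserine, rose by 4.32 ± 0.89 and 3.23 ± 1.05 (edgeR, adjusted p = 0.00317 and 0.0398). Cd24a has near-identical copies and is uncertain. Leaving out 1 library ended the call of Timd4 in 11 of 23 fits. Old against young libraries lost Nectin1 and Cd48 without old replicate 3, and Cd24a in 5 fits, old replicates 3 and 5 and young replicates 4, 6 and 7. The part of monocyte and neutrophil markers in these lists was not tested. The 3 lower genes were Nectin2, Lair1 and Sirpa. Between the repopulated groups edgeR called 0 of 36, beside 0.0% of all genes.

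All 20 genes listed for CD40 and noncanonical NF-kB signalling were tested, and 0 were called in old repopulated against old, in old against young and in old repopulated against young repopulated libraries. Of all genes, 0.278%, 2.83% and 0.0% were called in these comparisons, in the same order. Old repopulated against young libraries had 3 higher, beside 9.29% of all genes, and 4 lower, beside 5.92%. Traf1, an adaptor of TNF receptors, rose by 2.72 ± 0.71 (edgeR, adjusted p = 0.0128). Traf5, another adaptor, had a log2 fold change of -0.67 ± 0.21, Icam1, an adhesion molecule, -0.61 ± 0.20, and the kinase gene Map3k8 -0.49 ± 0.17 (edgeR, adjusted p = 0.0325, 0.0434 and 0.0483), and leaving out 1 library ended these 3 calls in 6, 15 and 18 of 23 fits. The list's median was -0.15, against -0.02 for all genes. Among 22 genes known to set the level of CD274, all tested, Spop, a ubiquitin ligase adaptor, was the 1 gene called. Its calls were in old and in old repopulated against young libraries, where 2.83% and 15.2% of all genes were called. It rose by 0.48 ± 0.12 in old (edgeR, adjusted p = 0.0287) and by 0.59 ± 0.11 in old repopulated (edgeR, adjusted p = 0.00125) against young libraries, and the former call was lost in 8 of 23 fits that left out 1 library.

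Over 23 libraries, which share groups and runs, Pearson correlations of log2 CPM with Cd276 lay between -0.38 for Cd80 and 0.37 for Cd86, and between -0.19 and 0.36 once group means were removed. The 5 genes most like it were Edem1, Abi2, Tnfaip1, Snx6 and Dyrk2, with r of 0.90, 0.85, 0.85, 0.83 and 0.82. After removal of group means their r was 0.69, 0.73, 0.48, 0.69 and 0.46. Edem1, which acts in the disposal of misfolded proteins of the endoplasmic reticulum, averaged 605 ± 48.6 CPM in young, 437 ± 29.0 CPM in young repopulated, 522 ± 50.2 CPM in old and 474 ± 50.7 CPM in old repopulated libraries. Abi2, a regulator of the actin cytoskeleton, averaged 43.2 ± 6.33, 25.7 ± 0.657, 25.9 ± 4.11 and 24.8 ± 3.88 CPM in the same order. These are descriptions, since the genes were ranked on the same values.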

How the data were processed

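Stranded mRNA libraries, prepared with 2.4 to 147 ng of RNA, were read as single 50 nt reads, per the labels' protocols. FastQC 0.11.5, STAR, RSEM, limma and build GRCm38 are named in the submitters' processing notes, while STAR and RSEM versions, the annotation and the use of strand are not given in the sources used here. Each table that the authors deposited holds expected counts, which RSEM estimates, with TPM and transcript lengths in bases, per the file headers. Of the expected counts, 87.26% were whole within 1e-06, and all were rounded here. Reads of near-identical or overlapping genes are divided by estimation and are uncertain.

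In R 4.3.3 with edgeR 4.0.16, filterByExpr kept 18720 genes, all 9 members among them, libraries were scaled by TMM, and all 23 entered 1 model with 1 coefficient per group. Calls are quasi-likelihood tests with a p under 0.05 after Benjamini-Hochberg adjustment over all genes tested. CPM are TMM-scaled, log2 CPM used a prior count of 2, and TPM was the deposited value, with a pseudocount of 0.1 in the permutation test. On simulated data a first criterion for the recovery of changed genes was not met and was then replaced, with the fit unchanged. Many of the smaller changes placed in those data were missed, so a gene not called here is not shown to be unchanged. Coordinates are from GENCODE M21 (GRCm38) for the 7 members with the identical identifier version.

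The members, gene lists and tests were chosen with earlier results of these data known. From each list up to 4 called genes of mean CPM of at least 1 with the largest change were named, for each marker list described up to 2 of the most abundant (some marker genes are not reported here), and the 5 genes of mean CPM of at least 5 with the highest correlation with Cd276. Pilra, Cd48, Ctla4, Cd226, Havcr1, Nectin2, Lair1 and Sirpa were named after their values were seen. Alternatives were RLE and upper-quartile factors, DESeq2 1.42.0, limma 3.58.1 (voom with sample quality weights), no filter, a filter at a mean of 5 CPM, only the groups compared, the library run as a block, each run alone, an offset from effective lengths, a permutation test and leaving out each library. The test of the difference between runs, the motifs, the windows shown and the count of 7 marker-rich libraries were chosen after the data were seen.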

Additional observations from a re-analysis of the deposited data

Results flagged for a closer look

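The effect on Cd40 of old repopulated against young libraries differed between the 2 runs of library numbers by 3.04 ± 0.67 on the log2 scale (edgeR interaction test, adjusted p = 0.0365). It was 3.06 in numbers 12 to 24, where the 3 old repopulated libraries had 11.2 to 17.4 CPM and the 4 young ones 1.495 to 1.77 CPM. It was 0.02 in numbers 1 to 11, where the 5 old repopulated libraries had 1.52 to 8.26 CPM and the 3 young ones 3.30 to 4.71 CPM. The young libraries of the 2 runs did not overlap each other either, and the share of all genes separated in this way was not computed. A search for a single far library in 27 combinations of gene and group found 0.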

How the results depend on the processing

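No paired analysis was possible because each library has a number of its own in the labels and the groups share none. Within old mice, 0 of 9 members were called, and 1, Lag3, within library numbers 12 to 24, beside 12.7% of all genes. In old against young libraries, where 0 of 8 were called, the count became 1 at a mean of at least 5 CPM (4.89% of all genes called), 2 with DESeq2 (5.19%), 4 with voom (12.6%), 2 with only the groups compared (4.09%), 1 with the run as a block (3.3%) and 6 within numbers 12 to 24 (15.7%). Leaving out 1 library gave 0 to 2 calls there, 2 without old replicate 1 or old repopulated replicate 2 and 1, Cd80, without young replicate 3, old replicate 4 or old repopulated replicates 1, 4, 6 or 8. Against young libraries, old repopulated ones, where 3 of 8 were called, had 5 with voom (35.5%), 4 with the run as a block, which added Vsir (24.5%), 2 with only the groups compared (15.8%), 0 within numbers 1 to 11 (0.0107%) and 6 within numbers 12 to 24 (41.1%). Leaving out 1 library gave 1 to 3, with 1, Cd80, without young replicate 5 or old repopulated replicates 5, 6, 7 or 8. Between the repopulated groups, where 0 of 8 were called, the count was 4 with voom (3189 of 18720 genes), 2, Icosl and Vsir, with the run as a block (4.52%) and 7 within numbers 12 to 24 (36.3%).

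Changes of sign were all in fold changes that were not called in the fit reported. These were, in old repopulated against old libraries, Pdcd1lg2 (block 0.10, numbers 12 to 24 0.38), Cd80 (voom 0.051, block 0.11, numbers 1 to 11 0.030, numbers 12 to 24 0.33), Cd40 (voom 0.15, block 0.015, numbers 12 to 24 0.38), Icosl (numbers 1 to 11 0.019), Vsir (voom -0.19, block -0.084, numbers 12 to 24 -0.53, permutation -0.13) and Lag3 (voom -1.50, block -0.64, numbers 12 to 24 -2.69, permutation -1.05). In old against young libraries Icosl was 9.94e-05 with voom, 0.062 in numbers 1 to 11 and 0.0051 with the length offset, and in old repopulated against young libraries 0.081 in numbers 1 to 11. Cd274 in old repopulated against young repopulated libraries was -0.032 with upper-quartile factors, -0.0057 with no filter, -0.0079 at 5 CPM, -0.021 with voom, -0.013 with only the groups compared and -0.056 in the permutation test. Leaving out 1 library, fold changes in old repopulated against old libraries ran from -0.60 to 0.29 for Pdcd1lg2, -0.19 to 0.23 for Cd80, -0.35 to 0.40 for Cd40, -0.11 to 0.074 for Icosl, -0.081 to 0.22 for Vsir and -0.32 to 0.31 for Lag3. Icosl ran from -0.089 to 0.072 in old and from -0.10 to 0.044 in old repopulated against young libraries, and Cd274 from -0.15 to 0.12 in old repopulated against young repopulated libraries. The cause was not tested. Depth limits Pdcd1lg2, with at most 91 counts in a library.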
